A study of Mus musculus with 30 samples.

Results

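The enzymes that write and erase methyl and acetyl groups on histones were examined in hippocampal RNA of mice kept in social isolation (SI) or group housing (GH). The list holds 51 members: lysine demethylases, lysine and arginine methyltransferases, the core subunits of Polycomb repressive complex 2 (PRC2), histone deacetylases and histone acetyltransferases. Counts were matched to 50 of them among the 17477 Ensembl gene IDs of the deposited table, 42 by their current symbol and 8 by an older one (for example Mll2 for Kmt2d and Jhdm1d for Kdm7a), and all 50 passed the filter on low counts in both sexes. Prmt1 was not analysed here. The animals were adult C57 BL/6J mice of both sexes, with no genetic or drug intervention, and 1 RNA-seq library of the hippocampus was made per mouse. SI mice (8 females and 7 males) lived alone after weaning, and GH mice (7 females and 8 males) shared cages and served as controls. Differences are given as Log2FC, the fitted log2 fold change of SI against GH within a sex, so that a negative value means a lower level in SI.

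Histone methylation marks chromatin according to the residue that carries it. Methylation of H3K4, H3K36 and H3K79 is found at active genes, whereas methylation of H3K9 and H3K27 accompanies silenced chromatin. Acetylation opens chromatin, and deacetylases remove it. In the hippocampus, acetylation and its removal are known for their part in learning and memory, and mutations in many of these enzymes cause human disorders of neurodevelopment.

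Total counts ranged from 18809307 to 100844898 per library, and the lowest count of any member in any library was 89, for Ezh2. The markers of neurons and of hippocampal principal cells were present in all 30 libraries. Values by mouse are CPM, a gene's counts divided by the library size, which was scaled by TMM within a sex, and were not adjusted for surrogate variables. Libraries 25, 33 and 39, all SI males, stood apart from the other males on the first principal component, which held 59.1% of the variance among males, and results in males are given with and without them. In whole tissue, a lower level can come from fewer cells of a type or from less RNA per cell, and these cannot be told apart.

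The upstream sequences of the 3 members called in females are shown (RefSeq, GRCm38.p6, 250 bases before the annotated start, minus strand, read 5′ to 3′ toward the gene). Capitals mark matches on either strand to the GC box (GGGCGG), the CCAAT box (CCAAT), the ETS core (CCGGAA) and the NRF1 core (TGCGCA). For Suv39h1, at chrX:8074761-8075010, the window of the more upstream of its 2 annotated starts is given, for Hdac5 the window is chr11:102230173-102230422, and for Kdm7a it is chr6:39206774-39207023.
Suv39h1: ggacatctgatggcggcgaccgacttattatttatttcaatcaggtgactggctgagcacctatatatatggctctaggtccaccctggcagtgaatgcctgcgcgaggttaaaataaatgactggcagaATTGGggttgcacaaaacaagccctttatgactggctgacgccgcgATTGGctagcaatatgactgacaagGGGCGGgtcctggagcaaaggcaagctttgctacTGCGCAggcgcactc
Hdac5: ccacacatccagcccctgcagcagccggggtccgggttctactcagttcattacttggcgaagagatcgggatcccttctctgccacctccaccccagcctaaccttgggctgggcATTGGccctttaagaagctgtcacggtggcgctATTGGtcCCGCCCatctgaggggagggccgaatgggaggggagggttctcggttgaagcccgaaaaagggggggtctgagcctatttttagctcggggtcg
Kdm7a: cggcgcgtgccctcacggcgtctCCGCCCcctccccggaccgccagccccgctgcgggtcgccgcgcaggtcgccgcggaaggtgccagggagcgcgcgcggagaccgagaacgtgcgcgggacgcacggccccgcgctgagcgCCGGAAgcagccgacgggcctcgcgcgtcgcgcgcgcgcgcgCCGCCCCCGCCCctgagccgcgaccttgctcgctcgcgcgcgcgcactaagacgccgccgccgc

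The printed window of Suv39h1 and that of Hdac5 each held 2 CCAAT boxes and 1 GC box, and that of Kdm7a held 3 GC boxes, 1 ETS core and no CCAAT box. The window of the other annotated start of Suv39h1 (chrX:8074362-8074611, not printed) held 1 GC box and no CCAAT box. The CCAAT box was thus missing from a window of a lower member as well as from that of Kdm7a. Among these windows the ETS core occurred only in that of Kdm7a. A CpG dinucleotide occurred 56 times in the Kdm7a window, which was the most among the members, 12 times in that of Hdac5 and 11 and 25 times in the printed and the other window of Suv39h1. Promoters were listed for 36 of the 50 members (47 annotated starts). Each start counts as a window, and some windows of 1 gene overlap almost wholly, as for Kdm2b and Kat6b. A GC box was present in 61.7% of the members' windows and in 32.7% of all 32851 promoter windows of the same length. A CCAAT box was present in 31.9% of the members' windows and in 33.9% of all. The members' windows held a median of 21 CpG, compared with 6 over all promoters. The E-box (CACGTG) was present in 6.38% of the members' windows and 6.02% of all, the ETS core in 14.9% and 12.03%, the NRF1 core in 14.9% and 6.43%, and the cyclic AMP response element (TGACGTCA) in none of the members' windows and 1.55% of all. These matches describe letters in a window only.

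In females, 3 of the 50 members were called at an adjusted p under 0.05 (edgeR quasi-likelihood test, Benjamini-Hochberg over the 16026 genes tested). Suv39h1 and Hdac5 were lower in SI, 2 of 50 members, where 2.93% of all genes tested were called lower. Kdm7a was higher, 1 of 50, where 0.961% of all genes were called higher. At an unadjusted p under 0.05, 6 members were lower and 6 higher, compared with 11% and 9.29% of all genes. The median Log2FC of the members was 0.0086 and that of all genes tested was 0.0077, with 24 members below 0 and 26 above. The median and the shares of the members were thus near those of all genes in females.

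**Figure D1:**
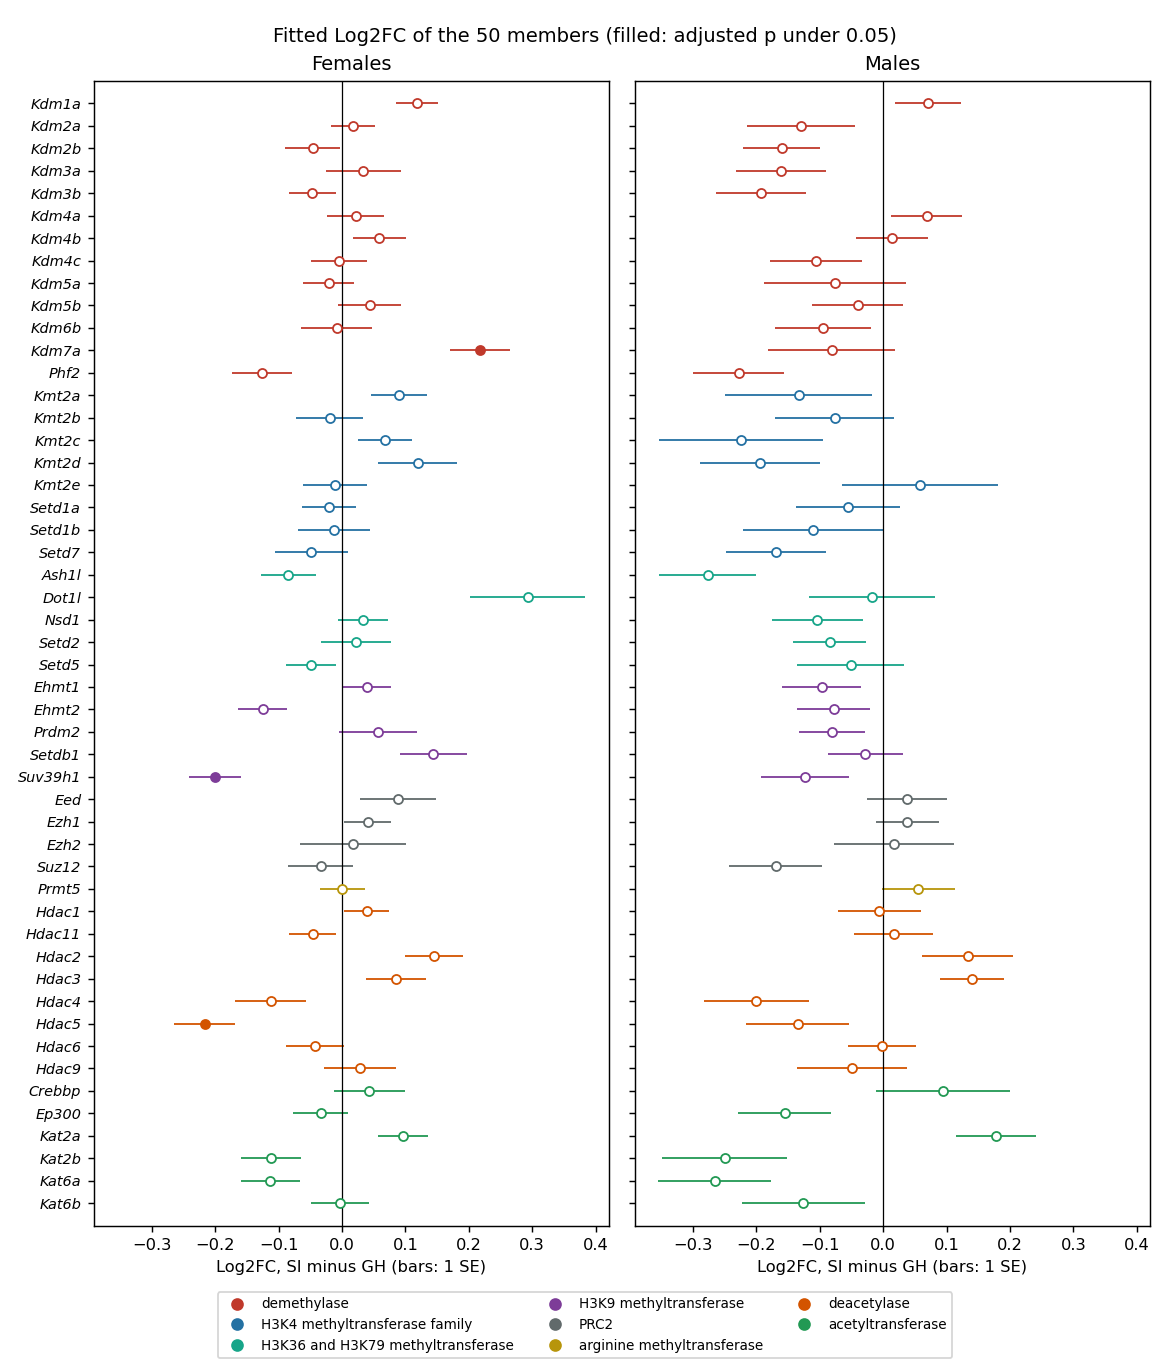
Fitted Log2FC (SI minus GH, horizontal axis) of each of the 50 members, with bars of 1 SE, in females (left) and males (right), coloured by role; filled points have an adjusted p under 0.05 over all genes tested. Only Kdm7a, Suv39h1 and Hdac5 are filled, in females, and 37 of the 50 points in males lie below 0.

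Suv39h1, which trimethylates H3K9 at constitutive heterochromatin, had the smallest p among the members in females. Its CPM was 22.3, 25.01 and 27.2 (lowest, median and highest) in GH females and 20.5, 21.5 and 22.8 in SI females. The groups overlapped only at their edges, since 7 of the 8 SI females lay below the lowest GH female. Its Log2FC was -0.20 (SE 0.0413, adjusted p = 0.0140, edgeR). Of all genes tested, 0.225% had every SI female below every GH female and 0.0874% every SI female above, and none of the members was among either. The gene lies at chrX:7638297-7651886 on the minus strand (NCBIM37), and 596 bases of its exons are shared with Gm14820 on the opposite strand. Whether the counting used strand is not given in the sources used here.

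Ehmt2 encodes G9a, the main H3K9 mono- and dimethyltransferase of euchromatin, and was among the most abundant members per length (64.7 CPM per kilobase in females). Its CPM was 246.4, 276.3 and 304.8 in GH females and 233.2, 249.5 and 261.7 in SI females. The lower part of the range belonged to SI mice, 3 of which lay below every GH mouse, but the Log2FC of -0.13 (SE 0.0390) missed the threshold (adjusted p = 0.0808, edgeR), which it passed without GH female 78 or 71. Its partner Ehmt1 (GLP) had a Log2FC of 0.04. Setdb1, which also trimethylates H3K9, had a Log2FC of 0.14 (adjusted p = 0.134, edgeR), and Prdm2 one of 0.06. Of the 5 H3K9 methyltransferases 2 were below 0 and 3 above in females, and 1 was called.

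None of the 8 members of the H3K4 methyltransferase family was called in females, and their Log2FC ranged from -0.05 (Setd7) to 0.12 (Kmt2d). Kmt2a, Kmt2c and Kmt2d, large catalytic subunits of complexes that methylate H3K4 at promoters and enhancers, were above 0, and Kmt2b, Kmt2e, Setd1a, Setd1b and Setd7 were below 0. Among the H3K36 and H3K79 methyltransferases, Dot1l, the H3K79 methyltransferase, had the highest Log2FC of all members in females, 0.29 (SE 0.0906, adjusted p = 0.0785, edgeR). Its CPM was 31.8, 35.0 and 41.3 in GH females and 28.5, 45.6 and 55.1 in SI females. Dot1l, Hdac2, Hdac4 and Kmt2d are described by mouse although no rule named them, and were chosen after their values were seen. In 6 of the 8 SI females Dot1l was above every GH female, while SI female 53 was below all of them. Setd2, Setd5, Nsd1 and Ash1l, which are linked to H3K36, ranged from -0.08 to 0.03.

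Kdm7a, which removes methyl groups from H3K9 and H3K27, was the only one of the 13 demethylases called in females. Its CPM was 31.3, 41.9 and 44.9 in GH females and 36.9, 45.95 and 51.6 in SI females. In 5 of the 8 SI females it exceeded the highest GH female, and the other 3 lay inside the GH range. Its Log2FC was 0.22 (SE 0.0478, adjusted p = 0.0199, edgeR). The gene lies at chr6:39086622-39156788 on the minus strand (NCBIM37), with 287 exonic bases shared with 4930599N23Rik on the opposite strand.

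Kdm1a (LSD1), which removes methyl groups from H3K4 within CoREST complexes, was next among the demethylases. Its CPM was 50.02, 51.85 and 58.65 in GH females and 52.9, 56.4 and 65.2 in SI females. All SI females were above the median of the GH females, and 3 exceeded the highest GH female. The Log2FC of 0.12 (SE 0.0329) just missed the threshold (adjusted p = 0.0537, edgeR). Kdm1a was called without GH female 46, 47 or 78 or SI female 52.

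Phf2, a JmjC protein that acts on H3K9, had a CPM of 55.4, 64.7 and 66.1 in GH females and of 46.8, 55.7 and 64.8 in SI females. It was below the lowest GH female in 4 of the 8 SI females. Its Log2FC was -0.13 (SE 0.0478, adjusted p = 0.146, edgeR). The remaining 10 demethylases ranged from -0.05 (Kdm3b) to 0.06 (Kdm4b) in females.

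The subunits of PRC2, which methylates H3K27, had Log2FC between -0.03 (Suz12) and 0.09 (Eed) in females, and none was called. Its catalytic subunit Ezh2 was the least abundant member per length (1.76 CPM per kilobase), and the alternative catalytic subunit Ezh1 had a Log2FC of 0.04. Prmt5, which dimethylates arginine symmetrically, had a Log2FC of 0.00016.

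Hdac5 was the only deacetylase called. It belongs to class IIa, whose members shuttle between nucleus and cytoplasm according to neuronal activity. Its CPM was 252.1, 307.9 and 329.5 in GH females and 213.5, 251.0 and 297.5 in SI females. In 4 of the 8 SI females it was below the lowest GH female, and every SI female was below the GH median. The Log2FC was -0.22 (SE 0.0478, adjusted p = 0.0202, edgeR). Hdac5 lies at chr11:102055746-102091480 on the minus strand (NCBIM37).

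The class IIa member Hdac4 also had a negative Log2FC in females, -0.11 (adjusted p = 0.274, edgeR), with 5 of the 8 SI females below the lowest GH female, whereas Hdac9 of the same class was at 0.03. The class I enzymes were above 0: Hdac1 at 0.04, Hdac3 at 0.08 and Hdac2 at 0.15 (SE 0.0462, adjusted p = 0.0865, edgeR). Hdac2, which has been studied as a brake on memory genes, had a CPM of 52.45, 59.4 and 61.7 in GH females and 61.5, 64.7 and 74.7 in SI females. In 7 of the 8 SI females it exceeded every GH female, and the remaining SI female lay just under the highest one. Hdac6, which deacetylates tubulin, and Hdac11, the most abundant member per length (80.1 CPM per kilobase in females), had Log2FC of -0.04 and -0.05.

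None of the 6 acetyltransferases was called in females. Crebbp (CBP) and Ep300 (p300), general transcriptional coactivators, had Log2FC of 0.04 and -0.03. Kat2a (GCN5) was at 0.10, and its paralog Kat2b (PCAF) at -0.11. Kat6a (MOZ) and Kat6b (MORF) were at -0.11 and -0.003.

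**Figure D2:**
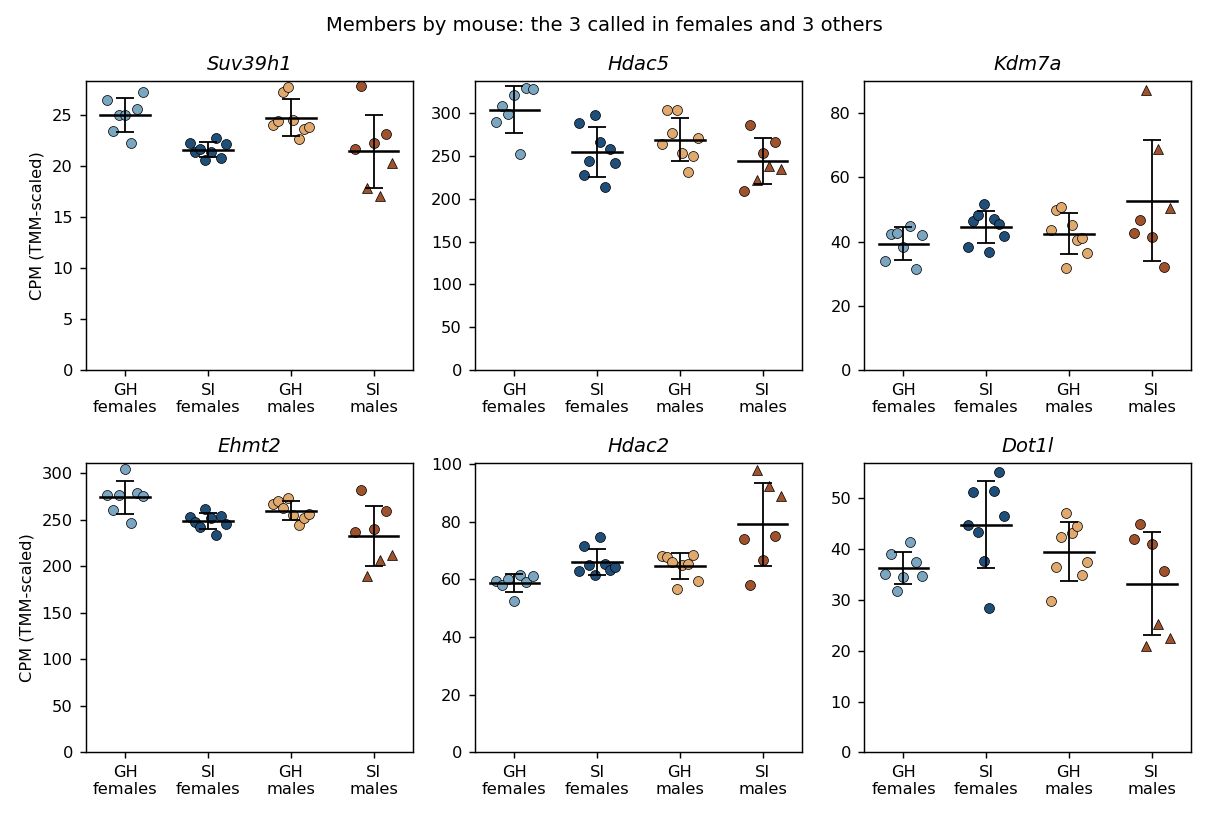
CPM of 6 members in each of the 30 mice, by group; each point is a mouse, triangles are SI males 25, 33 and 39, and lines with bars give the mean and SD. Suv39h1 and Hdac5 sit lower and Kdm7a higher in SI than in GH females, with overlap in each, while for Hdac2 7 of 8 SI females lie above all GH females.

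Calls in females depended on the surrogate variables, the covariates estimated from the data for unlabelled variation. Without them, or with the position digit of the sample labels in their place, none of the members and none of the 16026 genes tested was called (edgeR). Without surrogate variables, 5 members were lower and 4 higher at an unadjusted p under 0.05, compared with 6.55% and 5.15% of all genes. With DESeq2 and the same surrogate variables, 7 members were called: Suv39h1, Hdac5 and Ehmt2 lower, where 5.17% of all genes were called lower, and Kdm7a, Kdm1a, Dot1l and Hdac2 higher, where 2.5% were. With each library's trend against transcript length removed, 5 were called: Suv39h1 and Hdac5 lower (4.21% of all genes) and Kdm7a, Kdm1a and Dot1l higher (1.92%). Leaving out 1 mouse gave 0 calls without SI female 45 or GH female 48, where 0.926% and 1.7% of all genes were called. It gave 1 call without SI female 49, SI female 68 or GH female 54 (1.8%, 0.55% and 1.4% of all genes). It gave 6 calls, 12% of the members, without GH female 78 or SI female 52 (8.86% and 6.36% of all genes). Suv39h1 was no longer called without SI female 45, SI female 68 or GH female 48 (edgeR adjusted p = 0.0581, 0.0573 and 0.0501), and Hdac5 and Kdm7a each lost their call in 7 of the 15 fits. Over all settings and left-out mice the Log2FC stayed between -0.24 and -0.18 for Suv39h1, between -0.28 and -0.18 for Hdac5 and between 0.12 and 0.26 for Kdm7a.

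Markers of other cell types also differed between the female groups. All 8 astrocyte markers were lower in SI (median Log2FC -0.22) and 4 of them were called (Aldh1l1, Slc1a3, Slc1a2 and Aldoc). Their summed level was 4580 to 6281 CPM in SI females and 5439 to 7397 CPM in GH females. All 8 oligodendrocyte markers were lower and none was called, with sums of 6195 to 9334 CPM in SI and 6830 to 10311 CPM in GH, and all 8 microglial markers were lower with none called (357 to 463 CPM and 380 to 459 CPM). Among endothelial markers 8 of 8 were higher and Flt1 was called (202 to 245 CPM and 161 to 205 CPM), and among choroid plexus markers 8 of 8 were higher and none was called (1580 to 4058 CPM and 877 to 4977 CPM). Of the 8 neuronal markers 7 were above 0, none of these called, and Map2 was called lower, with sums of 5411 to 6288 CPM and 5196 to 6291 CPM. All 6 markers of hippocampal principal cells were higher in SI (median Log2FC 0.10) and none was called, with 3 at an unadjusted p under 0.05 and sums of 661 to 1011 CPM and 642 to 857 CPM. No marker of these lists was at 0 in any library. The part of these differences in the results for Suv39h1, Hdac5 and Kdm7a was not tested.

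In males, none of the 50 members was called, and neither was any of the 15833 genes tested with edgeR (0% lower and 0% higher). DESeq2 with the same surrogate variables called none of the members either, and 24 of all genes (0.152%). At an unadjusted p under 0.05, 11 members were lower and 2 higher in SI males, compared with 7.38% and 5.63% of all genes. The median Log2FC of the members was -0.08, while that of all genes was -0.002, and 37 of the 50 were below 0. Most roles shared this direction: 10 of 13 demethylases, 7 of 8 of the H3K4 family, all 5 H3K36 and H3K79 methyltransferases and all 5 H3K9 methyltransferases were below 0, compared with 1 of 4 PRC2 subunits, 5 of 8 deacetylases and 4 of 6 acetyltransferases. Of all genes tested in males, 50.7% were below 0. With each library's trend against transcript length removed, 24 of the 50 members were below 0, compared with 49.8% of all genes, and 15 members changed direction. The counts below 0 were then 7 of 13 demethylases, 4 of 8 of the H3K4 family, 1 of 5 H3K36 and H3K79 methyltransferases, 3 of 5 H3K9 methyltransferases, 2 of 4 PRC2 subunits, 3 of 8 deacetylases and 4 of 6 acetyltransferases.

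SI males 25, 33 and 39 were at the low end for most members. In 31 of the 50 members all 3 libraries lay below the other 12 males, where 25.6% of all genes did so, and in 5 members (Ezh2, Kdm5a, Hdac2, Hdac3 and Prmt5) all 3 lay above, where 24.4% of all genes did. Averaged over the 50 members, the log2 CPM of these 3 libraries deviated by -0.43 to -0.39 from the mean of the males, while the other SI males ranged from -0.07 to 0.20 and the GH males from 0.03 to 0.22. Without these 3 libraries the median Log2FC of the members was -0.04, 35 of 50 members were below 0 (52.3% of all genes), and 12 members changed direction. In that fit 5 members were lower and none higher at an unadjusted p under 0.05, compared with 3.37% and 2.91% of all genes. No member was called. Of the single mice, SI male 27 and SI male 38 moved the count: without SI male 27, 13 members were called by edgeR (11 lower and 2 higher, 26% of the members, where 15.3% of all genes were called), and without SI male 38, 3 were (Kdm2b, Phf2 and Ash1l, all lower, 6% of the members, where 0.802% of all genes were called). The other 13 fits that left out a mouse called no member.

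SI males 25, 33 and 39 also differed from other males in markers of other cell types, for some lists with overlap. The summed level of the 8 microglial markers was 548 to 648 CPM in them and 355 to 439 CPM in GH males, that of the neuronal markers 4554 to 4900 CPM and 5596 to 6361 CPM, and that of the astrocyte markers 3587 to 4386 CPM and 4881 to 6710 CPM. The oligodendrocyte sum was 8581 to 10997 CPM in them and 6186 to 8189 CPM in GH males, the endothelial sum 261 to 315 CPM and 176 to 251 CPM, and the choroid plexus sum 2156 to 4182 CPM and 43.0 to 2248 CPM. In the other 4 SI males the microglial, neuronal and astrocyte sums were 347 to 408 CPM, 5549 to 6756 CPM and 4088 to 5974 CPM, and the oligodendrocyte and endothelial sums were 5485 to 8339 CPM and 199 to 248 CPM. The hippocampal principal cell sum was 879 to 1092 CPM in SI males 25, 33 and 39 and 684 to 992 CPM in GH males. In the other 4 SI males it was 795 to 986 CPM, and the choroid plexus sum was 42.6 to 2162 CPM. A sum weighs abundant markers most. The mean log2 CPM deviation of the endothelial markers was -0.07 to 0.03 in SI males 25, 33 and 39 and -0.22 to 0.22 in GH males. For hippocampal principal cells it was -0.14 to -0.04 and -0.29 to 0.23, and for astrocytes -0.22 to -0.08 and -0.09 to 0.27. It also overlapped for choroid plexus, and did not for microglia, neurons and oligodendrocytes. The part of these differences in the members' levels was not tested.

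Ash1l, an H3K36 methyltransferase, had the smallest p of the members in males. Its CPM was 100.6, 109.0 and 140.8 in GH males and 39.3, 74.3 and 126.8 in SI males. SI males 25, 33 and 39 were at 39.3, 43.7 and 49.7, SI male 38 was at 74.3, and the highest SI males lay within the GH range. The Log2FC was -0.28 (SE 0.0769, adjusted p = 0.295, edgeR) and -0.13 (SE 0.0439) without the 3 libraries.

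Phf2 had a CPM of 54.2, 61.6 and 68.1 in GH males and of 17.9, 51.9 and 66.6 in SI males. The 3 libraries, at 17.93, 23.02 and 25.17, were far below every other male, and SI male 38 was also below the GH range. Its Log2FC was -0.23 (SE 0.0722, adjusted p = 0.3003, edgeR), and -0.11 (SE 0.0520) without them. Phf2 was below 0 in both sexes and called in neither, with all mice included.

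Kat6a had a CPM of 47.6, 56.7 and 67.0 in GH males and of 19.6, 37.6 and 57.8 in SI males. Kdm3b, an H3K9 demethylase, had a CPM of 39.6, 46.2 and 51.3 in GH males and of 14.0, 35.4 and 49.1 in SI males. For both genes the lowest 3 values were those of SI males 25, 33 and 39. The Log2FC was -0.27 (SE 0.0888, adjusted p = 0.312, edgeR) for Kat6a and -0.19 (SE 0.0714, adjusted p = 0.330, edgeR) for Kdm3b, and without the 3 libraries it was -0.08 and -0.01. Exons of Kdm3b share 53 bases with Gm17557 on the opposite strand.

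Among members above 0 in males, Kat2a had a CPM of 44.4, 53.4 and 57.9 in GH males and of 39.5, 50.7 and 66.0 in SI males. Here the 3 libraries were low and the other SI males spread upward, so that 2 SI males lay below and 3 above the whole GH range. The fitted Log2FC of 0.18 (SE 0.0634, adjusted p = 0.323, edgeR) stood beside a log2 ratio of the group means of 0.02, since the fit adjusts for surrogate variables, and was 0.04 without the 3 libraries. Hdac3, the deacetylase of the NCoR complex, had a CPM of 56.5, 61.2 and 66.0 in GH males and of 58.5, 69.4 and 87.4 in SI males. It was above every GH male in 5 of the 7 SI males, including the 3 libraries, with a Log2FC of 0.14 (SE 0.0510, adjusted p = 0.330, edgeR) and of 0.08 without them.

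**Figure D3:**
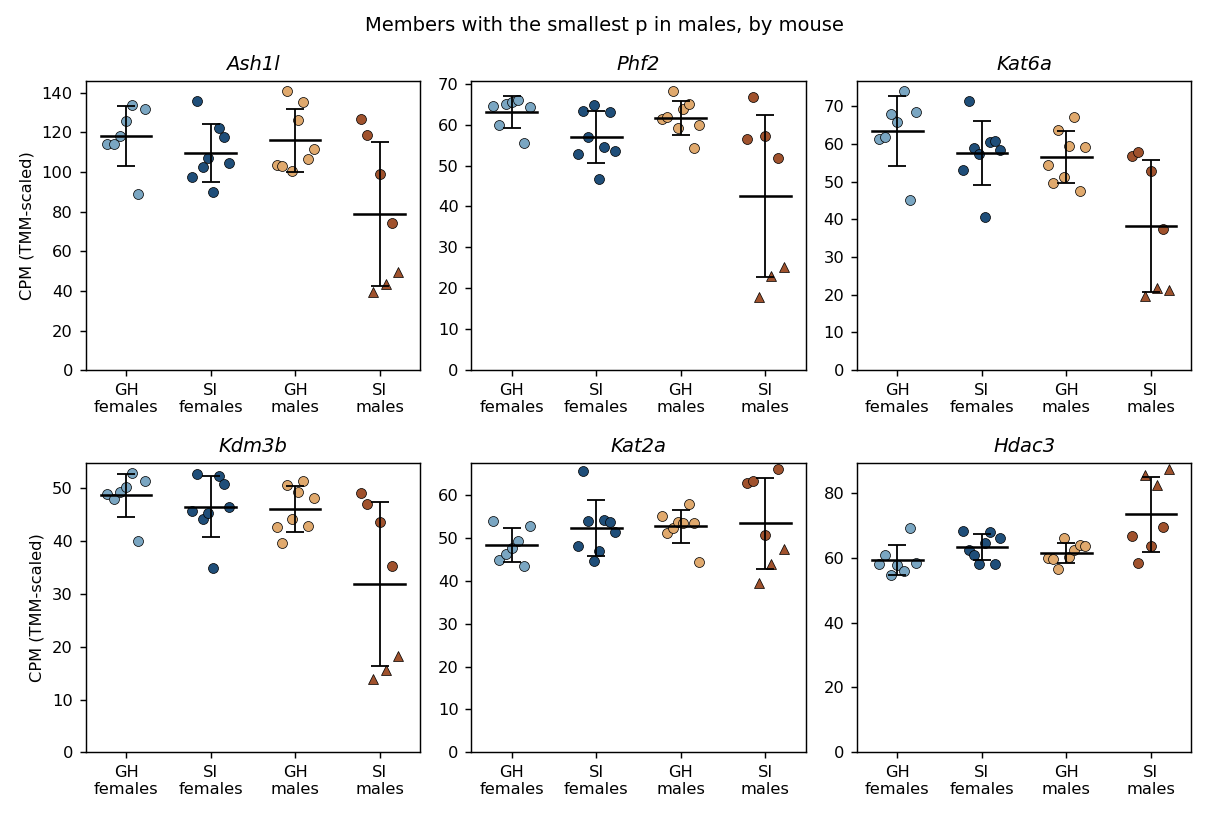
CPM in each mouse of the 4 members with the smallest p below 0 in males (Ash1l, Phf2, Kat6a, Kdm3b) and the 2 above 0 (Kat2a, Hdac3); each point is a mouse, triangles are SI males 25, 33 and 39, and lines with bars give the mean and SD. The triangles are the lowest 3 males for Ash1l, Phf2, Kat6a and Kdm3b and the highest 3 for Hdac3.

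The 3 members called in females were not called in males. Suv39h1 had a CPM of 22.7, 24.2 and 27.7 in GH males and of 17.1, 21.7 and 27.8 in SI males, with a Log2FC of -0.12 (SE 0.0693, adjusted p = 0.443, edgeR). It was below the lowest GH male in 5 of 7 SI males and above the highest in 1. Hdac5 had a CPM of 231.5, 267.3 and 303.6 in GH males and of 209.1, 237.6 and 285.8 in SI males, with a Log2FC of -0.14 (SE 0.0813, adjusted p = 0.469, edgeR). Without SI males 25, 33 and 39, the Log2FC was -0.11 for each of these genes, and Hdac4 had a Log2FC of -0.18 (SE 0.0487). The lowest adjusted p of any member in that fit was 0.630 (edgeR). Kdm7a had a Log2FC of -0.08 (SE 0.1002, adjusted p = 0.748, edgeR) although its CPM reached 87.2 in SI male 25 and the log2 ratio of the group means was 0.31. Ehmt2 was at -0.08, with and without the 3 libraries, and Kdm1a at 0.07 with them and at -0.01 without.

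Of all genes tested in males, 0.0253% had every SI male below every GH male and 0.0316% every SI male above, and none of the members was among either. The spread between mice was wider in SI males than in any other group: the coefficient of variation of the members had a median of 26.7%, compared with 8.91% in GH males, 11.96% in SI females and 9.21% in GH females. For 48 of the 50 members the coefficient of variation of SI males exceeded that of GH males. In the 4 SI males other than 25, 33 and 39 the median was 13.1%, and the coefficient exceeded that of GH males for 44 members. The coefficient of variation over all genes was not computed, so the wider spread is not shown to be particular to the members. In 25.6% of all genes SI males 25, 33 and 39 lay below the other 12 males, and in 24.4% above.

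The members have long transcripts. The median of their longest transcripts was 5530 bases, compared with 3089.5 over the genes tested in females, and 44 of 50 were longer than that median. The shortest was 2038 and the longest, of Kmt2d, 19805 bases. In each library the slope of the log2 CPM deviation on log2 transcript length was computed, and it lay between -0.41 and -0.31 in SI males 25, 33 and 39, compared with -0.04 to 0.22 in the other SI males and -0.01 to 0.21 in GH males. In females the lowest slopes were those of SI female 53 and GH female 78. Across the 50 members, which share the same libraries, the correlation of Log2FC with log2 transcript length was -0.52 in males (Pearson), -0.34 without SI males 25, 33 and 39, -0.08 once each library's length trend was removed, and 0.10 in females. Over all 15137 genes with a length it was -0.19 in males, and over all 15469 genes of the fit without SI males 25, 33 and 39 it was -0.0064. Without surrogate variables it was -0.40 across the members in males and -0.55 over all genes. Over all genes it was -0.023 in females, and 0.046 in males once each library's length trend was removed. With that trend removed, the median Log2FC of the members in males was 0.0045. The part of transcript length in the single members' results was not tested.

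**Figure D4:**
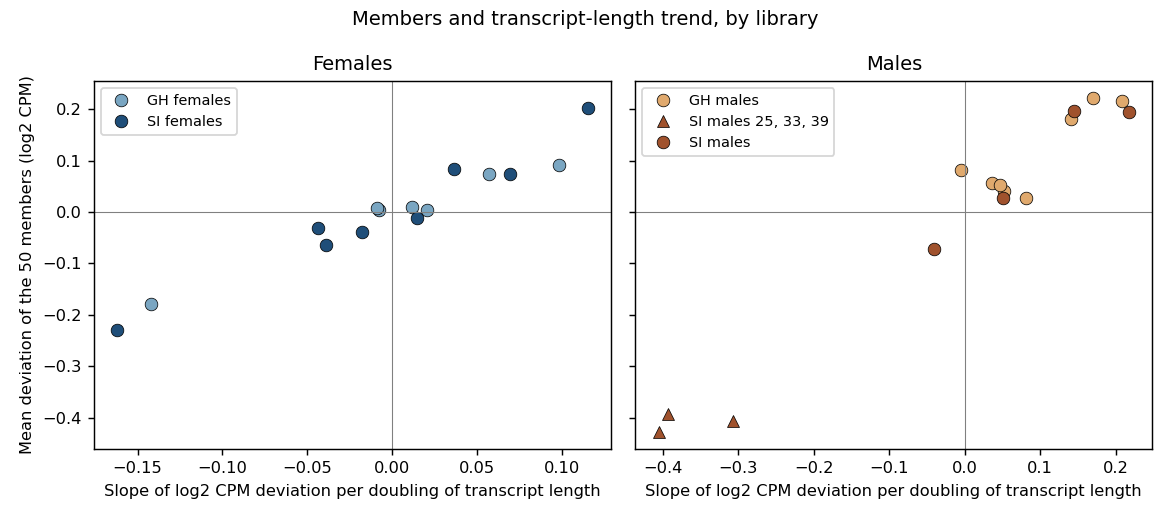
Mean deviation of the 50 members from their mean over the mice of a sex (log2 CPM, vertical axis) against the library's slope of log2 CPM deviation per doubling of transcript length (horizontal axis), females left and males right; each point is a library. SI males 25, 33 and 39 (triangles) are at the lower left, with slopes of -0.41 to -0.31 and deviations of -0.43 to -0.39, and in females the lowest pair are SI female 53 and GH female 78.

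**Figure D5:**
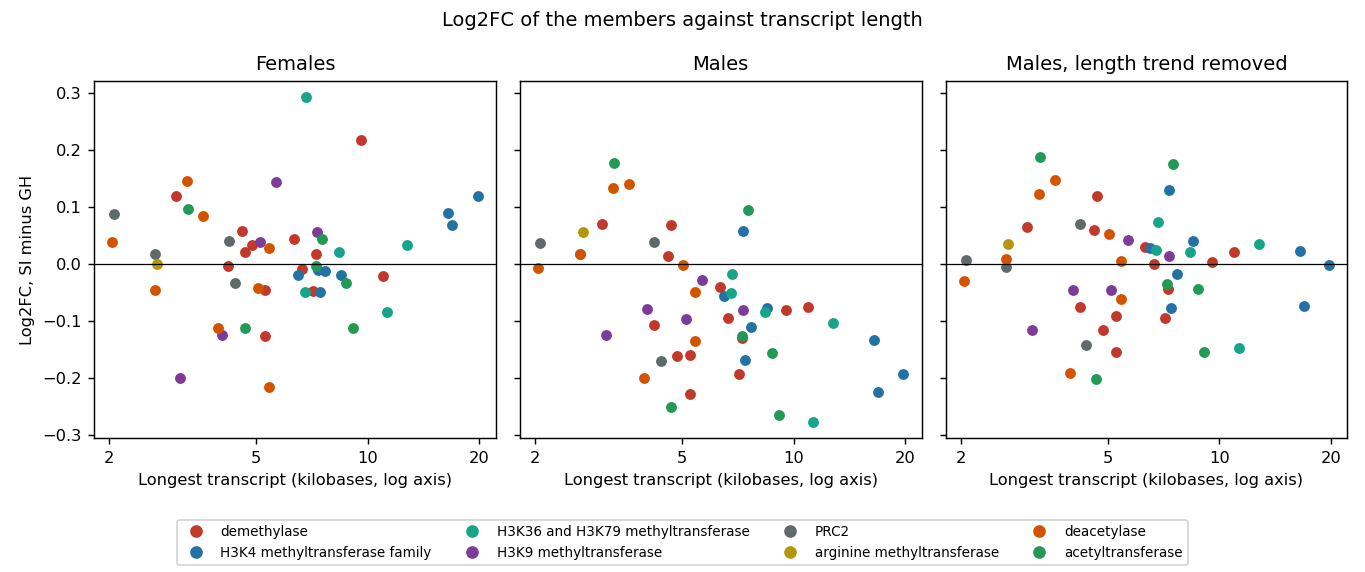
Log2FC (SI minus GH) of each of the 50 members against the length of its longest transcript (kilobases, log axis) in females, in males, and in males after removal of each library's length trend; colours give the role. The points slope downward in males (Pearson -0.52), with values near 0 after removal (-0.08) and in females (0.10).

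Whether the effect of housing differed between the sexes was tested as an interaction in 1 fit of all 30 mice. None of the 50 members was called (edgeR), compared with 0% of the 16391 genes lower and 0.0061% higher in males than in females. At an unadjusted p under 0.05, 2 members had a lower effect in males, Kmt2d with -0.21 (SE 0.0723, edgeR adjusted p = 0.601) and Dot1l with -0.25 (SE 0.119, edgeR adjusted p = 0.705), and none a higher one, compared with 4.67% and 2.36% of all genes. Kmt2d had a CPM of 95.4, 124.1 and 128.1 in GH females and of 85.9, 121.3 and 166.4 in SI females. In males Kmt2d was at 103.8, 126.6 and 161.2 in GH and at 44.4, 94.3 and 164.6 in SI, where the lowest 3 were again SI males 25, 33 and 39. Without SI male 27 the interaction of Kmt2d was called, as the only member (1.93% of all genes were called), and leaving out any other mouse gave 0 calls.

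Of 49 other enzymes of histone methylation and acetylation, none was called lower and 1 higher in females. This was Sirt7, a sirtuin that deacetylates H3K18, with 29.6 ± 2.30 CPM in SI females (SD, n = 8) and 25.2 ± 4.28 CPM in GH females (SD, n = 7) and a Log2FC of 0.26 (adjusted p = 0.0486, edgeR). The median Log2FC of this list was 0.04, and 36 of 49 were above 0, compared with 8464 of all 16026 genes tested. Of 54 partner subunits of the enzyme complexes, 2 were called lower and none higher. Of all genes tested in females, 2.93% were called lower and 0.961% higher. Chd3, a remodeller of the NuRD complex, which also contains Hdac1 and Hdac2, was at 1018 ± 70.8 CPM in SI females (SD, n = 8) and 1292 ± 117 CPM in GH females (SD, n = 7), with a Log2FC of -0.30 (adjusted p = 0.00703, edgeR). Wiz, a zinc finger partner of Ehmt1 and Ehmt2, was at 52.6 ± 4.62 CPM (SD, n = 8) and 62.6 ± 4.98 CPM (SD, n = 7), with a Log2FC of -0.22 (adjusted p = 0.0214, edgeR). In males none of either list was called by edgeR or by DESeq2. At an unadjusted p under 0.05, 5 of the other enzymes were lower and 1 higher, and 5 of the partners were lower and 2 higher. Of all genes tested in males, 7.38% were lower and 5.63% higher at that threshold. The 2 lists together held 3 calls in females (3.89% of all genes were called), 9 with DESeq2 (7.67%) and 0 without surrogate variables (0%). Leaving out 1 female gave from 1 to 10 calls. The count was 1 without GH female 54, SI female 63 or SI female 68 (1.4%, 1.06% and 0.55% of all genes). It was 10 without GH female 78 (8.86%), 8 without SI female 52 (6.36%), 6 without GH female 46 (5.88%) and 5 without SI female 53 (3.95%). In males there were 13 calls without SI male 27 and 5 without SI male 38, where 15.3% and 0.802% of all genes were called.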

How the data were processed

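Hippocampal polyadenylated RNA of 30 mice was sequenced, 1 library per mouse. According to the submitters' processing notes, reads were trimmed with Trimmomatic 0.39 and quantified with Salmon 1.8.0, and DESeq2 1.24.0 was used. The builds GRCm39 and mm39 are named there, and the annotation release and the use of strand are not given in the sources used here. The authors deposited a table of raw counts per Ensembl gene, not normalized, in which each gene had at least 100 counts over the mice. No column of the table lacked a sample (0 columns).

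Groups were taken from the sample labels, and replicates are separate mice. GH mice shared cages, but the labels do not give the cage, and it was not modelled. Among 98 pairs of mice of 1 group the lowest chi-square per degree of freedom was 9.29, so that no library was counted as a duplicate. Each sex was fitted alone with edgeR 4.0.16 (R 4.3.3) after filterByExpr (minimum count 10, minimum total 15) and TMM scaling, with surrogate variables from sva 3.50.0 (3 in females, 2 in males, 4 for all groups, 4 for males without 25, 33 and 39). The quasi-likelihood test was two-sided with Benjamini-Hochberg adjustment over all genes tested and a threshold of 0.05. The SE is the size of the Log2FC over the square root of F. The script was tested on simulated data.

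The members and lists were chosen with earlier results of these data known. Values by mouse are given for members with an adjusted p under 0.05 and, where fewer than 6 passed in a sex, for those with the smallest p, up to 4 lower and 2 higher, and for Phf2. Of the other lists, genes with an adjusted p under 0.05 are named. Symbols were matched to Ensembl IDs by tables, and Prmt1 was not analysed here. Gene coordinates and transcript lengths are those of GENCODE vM1 (NCBIM37), another build than that of the counts. Alternatives were DESeq2 1.42.0, limma 3.58.1 voom with quality weights, RLE scaling, no filter, no surrogate variables, the position digit of the labels, removal of each library's length trend (lowess span 0.3), and leaving out each mouse or SI males 25, 33 and 39.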

Additional observations from a re-analysis of the deposited data

Results flagged for a closer look

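For 11 members and the mean deviation of the members, the highest and lowest mouse of each group were compared with the rest of the group by Dixon's ratio. Of 48 groups of values 6 held a mouse far from the others. Chance alone flags about 1 in 20 independent groups. These groups share the same libraries and are not independent, so that rate cannot be set against the count. Among GH females, mouse 46 had the highest Kdm1a level, 58.6 CPM, with the next mouse at 52.6 CPM. GH female 78 had the lowest Kdm3b level, 40.1 CPM (next 47.97 CPM), the highest Hdac3 level, 69.1 CPM (next 61.0 CPM), and the lowest mean deviation of the members, -0.18 on the log2 scale (next 0.0030). Among SI females, mouse 53 had the lowest Kdm3b level, 34.8 CPM (next 44.2 CPM), and mouse 45 the highest Kat2a level, 65.5 CPM (next 54.04 CPM). GH female 78 thus accounted for 3 of the 6 values.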

How the results depend on the processing

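Without GH female 78 and SI female 53, a setting added after seeing the data, 8 members were called in females (16%, against 9.64% of all genes), and with the length trend removed and no surrogate variables, also added after seeing the data, 1 was (Suv39h1; 2%, against 0.381%). Of the planned settings, 5 gave 7 (DESeq2, 7.67% of all genes), 0 (no surrogate variables, 0%), 0 (position digit, 0%), 5 (length trend removed, 6.12%) and 5 (limma-voom, 5.23%) in place of 3 (3.89%). The count was 3 with RLE scaling (4.02%) and 4 without the filter on low counts (4.18%). Leaving out 1 mouse gave 0 to 6 (0.55% to 8.86% of all genes). For the other enzymes and partner subunits the calls in females were 12, 0, 9, 0, 0, 5 and 7 in place of 3. The order of settings is the same, with RLE scaling and the fit without the filter left aside. With 1 mouse left out there were 1 to 10 calls. The shares of all genes called are those given above for the same fits. In males, leaving out 1 mouse gave 0 to 13 members and 0 to 13 genes of the other lists (0% to 15.3% of all genes). For the interaction it gave 0 to 1 members (0% to 1.93% of all genes). The cause of these changes was not tested.

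Of the 11 members named by the rule, 4 changed direction in males under some setting. Over all 50 members, 15 changed direction in males with the length trend removed, 12 without SI males 25, 33 and 39, 6 without surrogate variables and 1 with DESeq2. The Log2FC of Kdm7a was 0.31 without surrogate variables, 0.14 with the position digit, 0.0043 with the length trend removed, 0.040 with limma-voom, 0.81 with the length trend removed and no surrogate variables, and -0.15 to 0.24 with 1 mouse left out. It was -0.012 for Kdm1a without SI males 25, 33 and 39, 0.098 for Hdac5 with the length trend removed and no surrogate variables, and -0.016 for Kat2a with the position digit. Of 528 alternative values for 22 Log2FC of named members, 469 kept their direction and side of the threshold, 26 lost and 23 gained a call, and 10 changed direction.

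No paired analysis was possible because the replicate numbers of the labels are animal numbers, and no number occurs in more than 1 group. The position digit of the labels, whose meaning is not stated, is partly confounded with housing, since digit 3 is missing among GH females and digit 4 among SI males. The depth of the libraries did not leave any member near 0 counts. The precision of the Log2FC rests on the spread between mice that is left after the surrogate variables, with 7 or 8 mice in a group.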
